A study of Mus musculus with 12 samples.

Results

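Cdx2, Gata3, Tfap2c, Id2, Eomes, Gata2 and Elf5 are transcription regulators of the trophectoderm, the outer cell layer of the mouse blastocyst that later forms the placenta. Their messenger RNA was followed in preimplantation embryos that developed without treatment, were arrested with U0126, or were released from that arrest. The 7 genes were chosen by symbol from the array annotation, and of several probe sets for a gene the one with the largest mean over the 12 arrays was kept. All 7 were found among the 18194 genes named on the array, and all 7 belonged to the 9930 genes with enough signal to be tested.

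The embryos came from ICR mice. U0126 is an inhibitor of MEK, the kinase that activates ERK, and the study examined what the ERK pathway does in early cleavage. Treated embryos had been given 20 µM U0126 and were collected at day 2.5, when they were arrested with 4 cells. Embryos released from the arrest were collected at day 3.5, with 8 cells, and at day 4.5, between morula and blastocyst. Control embryos were collected at day 1.5 with 2 cells, at day 2.5 with 4 to 8 cells, and at day 3.5 between morula and blastocyst. Each of the 6 groups had 2 arrays, from 2 experiments by the series' text. Nothing in the labels ties the arrays of a group to separate animals, so p-values measure only the spread between these arrays, which may be technical. The released embryos of day 3.5 therefore shared the age of the oldest controls but not their recorded stage, and those of day 4.5 were older than any control. Each array measured RNA from whole embryos, so fewer cells expressing a factor and less of its RNA in each such cell cannot be told apart.

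In the mouse embryo the trophectoderm separates from the inner cell mass as outer cells become polarised and the co-activator YAP enters their nuclei, where it works with TEAD4. Cdx2 and Gata3 are 2 factors switched on by this route, and Cdx2 then represses the pluripotency gene Pou5f1 in outer cells. Tfap2c is an AP-2 factor present from early cleavage, Id2 is an inhibitor of basic helix-loop-helix factors that marks the first outer cells, Eomes and Elf5 maintain the trophoblast stem cells made from the polar trophectoderm, and Gata2 acts with Gata3 in trophoblast genes.

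The arrays were alike in scale, with median intensities between 10.8 and 11.5. Within groups the 2 arrays correlated at 0.955 to 0.980 over the 9930 tested genes, and the lowest correlation between any 2 arrays was 0.516. A level below means log2(intensity + 1), differences are on that scale with standard errors, and a log2 level of 5 was taken as the limit under which signal counted as near background. Genes were called changed at an adjusted p under 0.05 in limma's moderated test, adjusted over all 9930 genes. Of 8 genes that define oocytes and preimplantation embryos, Pou5f1, Dppa3, Zfp42 and Cdh1 reached level 5 on all 12 arrays, Krt8 on 10, Zp3 and Gdf9 on 9 and Zp2 on 3. None of the 9 matched markers of cumulus and granulosa cells reached level 5 on any array, and their summed intensity lay between 63.8 and 76.7. Among 8 markers of oviduct epithelium Wfdc2 and Ovgp1 passed level 5 on at least 1 array, and among 7 markers of blood and immune cells Cd68 and Cd74 did.

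Cdx2 and Gata3 had similar profiles over the arrays, as did Elf5 and Gata2, so their promoters are given first. Each window holds the 250 bases before an annotated transcription start in RefSeq (GRCm38.p6), read 5′ to 3′ on the strand of the gene. Capitals mark matches, on either strand, to a TEAD motif (GGAATG, read as CATTCC on the other strand), a GATA motif (AGATAA) and an AP-2 motif (GCCNNNGGC, which reads alike on both strands). No matches overlap in these windows. RefSeq windows were held for 6 of the 7 genes, as 8 windows in all, and Tfap2c had none. For Cdx2 (chr5:147307250-147307499, minus strand) and Gata3 (chr2:9878601-9878850, minus strand) the windows were as follows.
Cdx2: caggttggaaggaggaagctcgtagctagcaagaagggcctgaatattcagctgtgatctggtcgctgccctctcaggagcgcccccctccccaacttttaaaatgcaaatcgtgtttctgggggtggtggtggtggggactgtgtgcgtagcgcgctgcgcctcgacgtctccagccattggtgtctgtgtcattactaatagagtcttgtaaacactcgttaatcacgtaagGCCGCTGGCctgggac
Gata3: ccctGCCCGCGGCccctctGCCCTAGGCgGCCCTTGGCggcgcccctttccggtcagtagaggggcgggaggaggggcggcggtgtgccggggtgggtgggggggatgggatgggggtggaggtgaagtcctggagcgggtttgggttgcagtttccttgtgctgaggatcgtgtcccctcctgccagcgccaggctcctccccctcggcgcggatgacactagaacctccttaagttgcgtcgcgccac
Elf5 has 2 annotated starts on the plus strand, at chr2:103411848-103412097 and chr2:103423818-103424067, and so has Gata2, at chr6:88193641-88193890 and chr6:88198414-88198663.
Elf5, first window: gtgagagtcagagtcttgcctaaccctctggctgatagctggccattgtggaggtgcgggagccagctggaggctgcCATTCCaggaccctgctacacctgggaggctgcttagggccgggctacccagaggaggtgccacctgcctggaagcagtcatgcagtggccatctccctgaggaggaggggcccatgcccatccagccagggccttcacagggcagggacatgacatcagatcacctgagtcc
Elf5, second window: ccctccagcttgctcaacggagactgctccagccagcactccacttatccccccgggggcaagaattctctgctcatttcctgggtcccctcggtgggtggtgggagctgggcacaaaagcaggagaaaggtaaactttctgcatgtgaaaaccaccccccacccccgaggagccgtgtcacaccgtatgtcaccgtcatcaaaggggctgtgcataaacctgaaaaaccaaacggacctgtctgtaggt
Gata2, first window: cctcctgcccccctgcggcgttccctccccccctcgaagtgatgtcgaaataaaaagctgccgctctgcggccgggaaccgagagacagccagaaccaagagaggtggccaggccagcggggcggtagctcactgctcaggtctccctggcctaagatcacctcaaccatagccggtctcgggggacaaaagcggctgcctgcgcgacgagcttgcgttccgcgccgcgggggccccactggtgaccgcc
Gata2, second window: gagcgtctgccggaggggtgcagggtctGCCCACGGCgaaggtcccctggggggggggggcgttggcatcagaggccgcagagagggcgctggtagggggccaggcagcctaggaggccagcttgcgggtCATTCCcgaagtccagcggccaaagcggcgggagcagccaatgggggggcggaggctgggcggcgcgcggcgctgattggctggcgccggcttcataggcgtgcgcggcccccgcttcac
The AP-2 motif stood once in the Cdx2 window, beginning 16 bases before the start, and at 3 places in the Gata3 window, beginning 246, 231 and 221 bases before it. The TEAD motif stood in 1 Elf5 window, 173 bases before the start, and in 1 Gata2 window, 120 bases before it, where an AP-2 motif also stood at 222 bases. Neither the Eomes nor the Id2 window held any of the motifs, and no window held the GATA motif. Over all 32851 mouse windows of this length, 12.6% held the TEAD motif, 9.99% the GATA motif and 13.7% the AP-2 motif. A match describes the letters only and shows no binding.

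The level of Cdx2, the homeobox factor that defines the trophectoderm, rose over the control series, was low in the arrested embryos and high in the released ones. Its log2 levels were 4.51 and 4.34 in the U0126-treated embryos, 9.46 and 8.91 in the released embryos of day 3.5, and 10.23 and 10.08 in those of day 4.5. In controls they were 3.30 and 2.39 at day 1.5, 7.69 and 7.13 at day 2.5, and 9.81 and 9.50 at day 3.5. The arrested embryos lay under level 5 on both arrays, below the controls of their own age with no overlap, and the 2-cell controls lay under that level too. The order of group means ran from control day 1.5 through U0126 day 2.5, control day 2.5, released day 3.5 and control day 3.5 to released day 4.5. The first 3 steps of that order passed the test, the first of them between groups near background, and the last 2 (0.47 and 0.50) did not. The other Cdx2 probe set stayed under level 5 throughout, between 2.84 and 4.58. Its difference for U0126 day 2.5 minus control day 2.5 was 0.12, where the chosen probe set gave -2.99. Signal near background cannot decide between these values, so the Cdx2 results rest on the chosen probe set alone.

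Gata3, a zinc finger factor that works beside Cdx2, followed the same order. Its log2 levels were 5.97 and 5.62 in the U0126-treated embryos, 9.80 and 9.40 in released embryos of day 3.5, and 11.27 and 10.92 in those of day 4.5. In controls they were 3.42 and 3.71 at day 1.5, 7.74 and 6.51 at day 2.5, and 10.40 and 9.52 at day 3.5. Treated and control arrays of day 2.5 did not overlap, yet the control arrays lay 1.23 apart and their step from the treated embryos missed the threshold. The steps from the 2-cell controls to the treated embryos and from control day 2.5 to released day 3.5 passed.

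Tfap2c, the AP-2 factor, was above level 10 in every group. Its log2 levels were 10.44 and 10.35 in the U0126-treated embryos, 11.25 and 11.34 in released embryos of day 3.5, and 11.28 and 11.48 in those of day 4.5. In controls they were 10.54 and 10.01 at day 1.5, 11.44 and 11.66 at day 2.5, and 11.52 and 11.37 at day 3.5. The 4 arrays of 2-cell and treated embryos lay below the other 8. Of the neighbouring groups in its order only U0126 day 2.5 and released day 3.5 differed past the threshold. Its probe set can also read similar transcripts, and the 2 other Tfap2c probe sets spanned levels of 7.87 to 9.39 and 6.44 to 8.37.

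By its chosen probe set Id2 was over level 5 at every stage and was highest in the oldest released embryos. Its log2 levels were 8.22 and 8.34 in the U0126-treated embryos, 10.58 and 11.38 in released embryos of day 3.5, and 13.05 and 13.47 in those of day 4.5. In controls they were 7.57 and 7.78 at day 1.5, 7.865 and 6.996 at day 2.5, and 12.78 and 11.56 at day 3.5. The 2-cell, 4- to 8-cell and treated embryos formed a low range, and the only neighbouring groups in the order of means that differed were U0126 day 2.5 and released day 3.5. A second Id2 probe set gave the same division, with 9.63 and 9.15 in released embryos of day 4.5. It was at most 4.61 in the treated and the younger control embryos, so Id2 signal there rests on the chosen probe set. The third Id2 probe set spanned levels of 2.95 to 5.04.

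Eomes, a T-box factor of trophoblast stem cells, was low in the 2-cell and 4- to 8-cell controls and highest in released embryos of day 4.5. Its log2 levels were 6.65 and 4.20 in the U0126-treated embryos, 7.51 and 7.62 in released embryos of day 3.5, and 11.23 and 10.98 in those of day 4.5. In controls they were 3.94 and 4.25 at day 1.5, 4.78 and 5.02 at day 2.5, and 9.19 and 8.00 at day 3.5. The treated arrays lay 2.45 apart, the widest gap of any group among the 7 genes, and they enclosed both control arrays of day 2.5. Neighbouring groups in the order of means differed past the threshold at released day 3.5 over U0126 day 2.5 and at released day 4.5 over control day 3.5. The second Eomes probe set showed that gap too, with 6.23 and 4.63.

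Gata2 and Elf5 were distinguished by the released embryos of day 4.5. Gata2, a second GATA factor, had log2 levels of 5.70 and 4.65 in the U0126-treated embryos, 5.14 and 5.43 in released embryos of day 3.5, and 8.95 and 9.74 in those of day 4.5. In controls its levels were 4.61 and 4.64 at day 1.5, 3.93 and 4.65 at day 2.5, and 5.96 and 4.80 at day 3.5. All 10 arrays below the oldest embryos thus lay between 3.93 and 5.96, around level 5. The other Gata2 probe set had 7.57 and 7.24 in released embryos of day 4.5 and at most 6.25 elsewhere.

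Elf5, an ETS factor that keeps trophoblast stem cells in their lineage, had log2 levels of 2.45 and 2.49 in the U0126-treated embryos, 2.91 and 3.41 in released embryos of day 3.5, and 8.15 and 9.73 in those of day 4.5. In controls its levels were 2.85 and 2.82 at day 1.5, 2.50 and 2.50 at day 2.5, and 2.77 and 2.73 at day 3.5. The signal was near background on every array but those 2. Elf5 entered the tested genes through these arrays alone, so a difference of that group from the others was a condition of its being tested. Its second probe set stayed under level 5 throughout and reached 4.20 on the released day 4.5 array that was the higher of the pair.

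**Figure D1:**
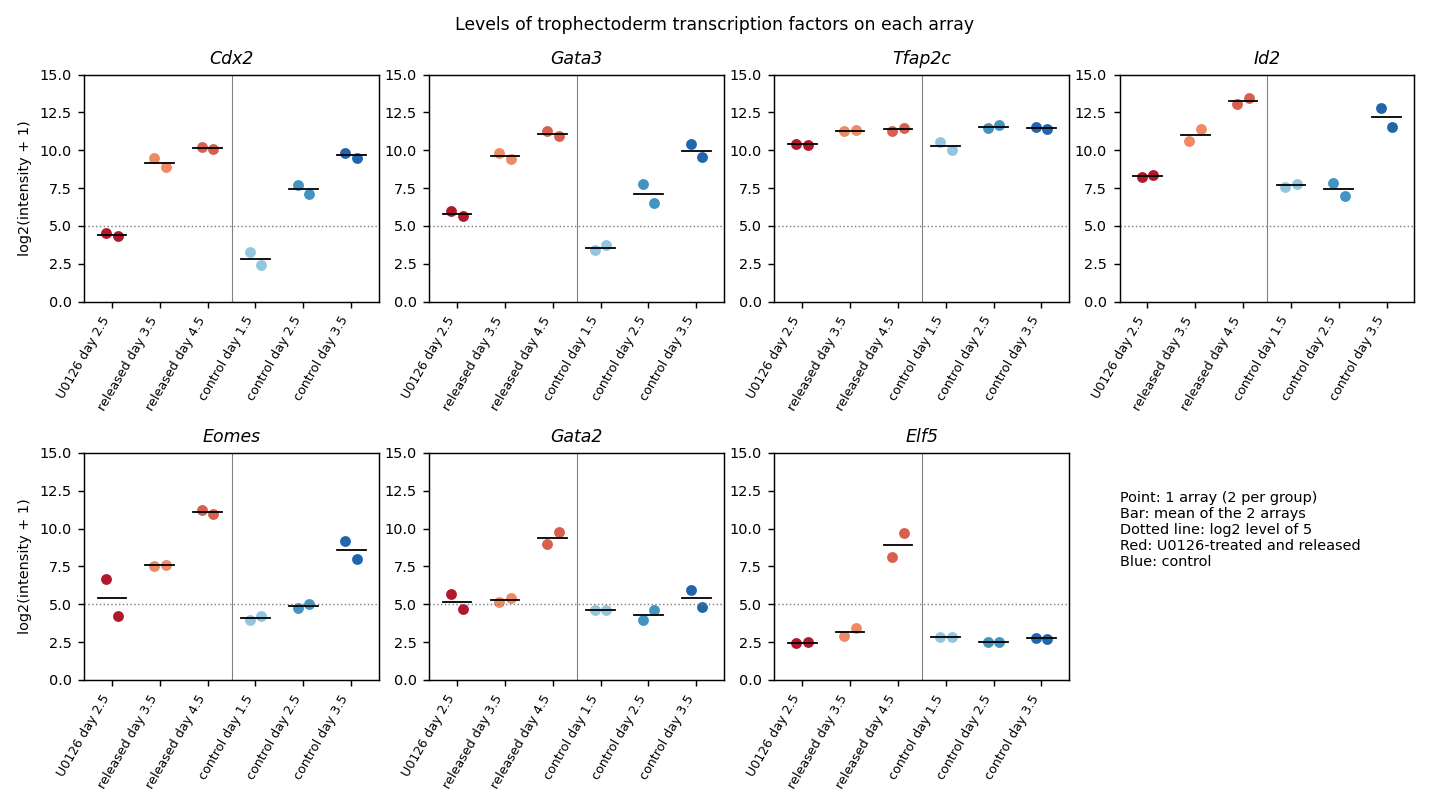
Log2(intensity + 1) of each factor (y axis) on each of 2 arrays in 6 groups (x axis), with treated and released embryos in red left of the controls in blue, bars at the mean of the 2 arrays and a dotted line at level 5. Cdx2 and Gata3 are low in treated embryos and high in both released groups, whereas Gata2 and Elf5 stand out in released embryos of day 4.5.

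Between the 2-cell and the 4- to 8-cell controls, Cdx2, Gata3 and Tfap2c rose, and the other 4 factors did not pass the test. At day 2.5 against day 1.5, Cdx2 was 4.57 ± 0.35 higher, Gata3 3.56 ± 0.42 higher and Tfap2c 1.28 ± 0.26 higher, with limma adjusted p-values of 2.51e-06, 4.71e-05 and 0.00164. Cdx2 and Gata3 were under level 5 on both 2-cell arrays, and measured from that level their gains were at least 2.41 and 2.12. These 3 of 7 compare with 28.0% of all tested genes called higher in this step. Eomes differed by 0.80, Id2 by -0.25, Gata2 by -0.34 and Elf5 by -0.33.

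Between the 4- to 8-cell controls and those between morula and blastocyst, Cdx2, Gata3, Eomes and Id2 rose, 4 of the 7, against 13.4% of all tested genes. Day 3.5 exceeded day 2.5 by 4.74 ± 0.44 for Id2, by 3.70 ± 0.64 for Eomes, by 2.84 ± 0.42 for Gata3 and by 2.25 ± 0.35 for Cdx2, with limma adjusted p-values of 0.000211, 0.0033, 0.00175 and 0.00207. Gata2 differed by 1.09 (adjusted p = 0.125), Elf5 by 0.25 and Tfap2c by -0.11. All the calls in both control steps held when any 1 array was left out. The oviduct marker Wfdc2 moved with this step, at 6.93 and 5.89 on day 3.5 and at 2.90 and 3.45 on day 2.5, a difference of 3.23 ± 0.50 (limma adjusted p = 0.00195). Ovgp1 of the same list differed by -0.57 ± 0.56 (limma adjusted p = 0.514), and the other markers of the list were under level 5 on these arrays. The summed intensity of the list was 183 and 138 on day 3.5 and 85.9 and 99.4 on day 2.5, and its part in these differences was not tested.

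At day 2.5, U0126-treated embryos carried less Cdx2 and less Tfap2c than controls of the same age. The treated embryos had 4 cells and the controls 4 to 8, so cell stage and treatment cannot be told apart. Cdx2 averaged 4.42 ± 0.12 in treated embryos and 7.41 ± 0.39 in controls (SD, n = 2 each), a difference of -2.99 ± 0.35 (limma adjusted p = 0.00135), or, counted from level 5, at least -2.41. Tfap2c averaged 10.40 ± 0.07 in treated embryos and 11.55 ± 0.15 in controls (SD, n = 2 each), a difference of -1.16 ± 0.26 (limma adjusted p = 0.0164). These 2 of 7 compare with 4.72% of all tested genes called lower. Gata3 differed by -1.33 ± 0.42 without passing (adjusted p = 0.0645), with a 95% interval from -2.27 to -0.39. It passed with each array centred on its median (-1.53, adjusted p = 0.0279) and with quantile normalization (-1.43, adjusted p = 0.0416).

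No factor was called higher in treated embryos, against 9.21% of all tested genes by limma (915 genes, and 553 with each array centred on its median), and 0 of the 7 reached an unadjusted p under 0.05 in that direction. Gata2 differed by 0.89, Id2 by 0.85, Eomes by 0.53 and Elf5 by -0.03. Cdx2 was called lower whichever of the 4 arrays was left out, but not in a fit of these 4 arrays alone (adjusted p = 0.0621), which called 0 genes by limma and had 2245 at an unadjusted p under 0.05. The Tfap2c call was lost without either control array (adjusted p = 0.0656 and 0.0992) or without the second treated array (0.0521). Gata3 passed when the second control array was left out, at -1.94 with an adjusted p of 0.0316. The Eomes difference was -0.69 without the first treated array and 1.75 without the second (adjusted p = 0.0355), so its direction depended on which array was kept. Cd68, a macrophage gene among the markers of blood and immune cells, was at 7.29 and 6.50 in treated embryos and at 4.62 and 4.31 in controls of day 2.5. The summed intensity of the 7 markers of that list was 195 and 130.5 in treated embryos and 71.0 and 61.9 in controls, the other 6 were under level 5 on all 4 arrays, and their part in these differences was not tested.

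Set against the 2-cell controls, the arrested embryos had more Gata3, and Cdx2 was called on signal near background. Treated embryos exceeded 2-cell controls by 1.58 ± 0.35 for Cdx2 and by 2.23 ± 0.42 for Gata3 (limma adjusted p = 0.00357 and 0.00138), 2 of 7, about the share of all tested genes called higher, 28.1%. Cdx2 was under level 5 on all 4 arrays, so neither the size nor the presence of a Cdx2 gain is settled by its call. Gata3 was over level 5 in treated embryos on both arrays, and its mean there lay 0.80 above that level. Tfap2c differed by 0.12, Id2 by 0.61, Gata2 by 0.55 and Elf5 by -0.36, and Eomes differed by 1.33 (adjusted p = 0.109) but by 2.55 without the second treated array (adjusted p = 0.00138).

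After release from the arrest 5 of the 7 factors rose by day 3.5, against 13.7% of all tested genes called higher. Relative to treated embryos, released embryos of day 3.5 had 4.76 ± 0.35 more Cdx2, 3.80 ± 0.42 more Gata3 and 2.69 ± 0.44 more Id2, with limma adjusted p-values of 2.35e-05, 0.000235 and 0.00166. From level 5, the Cdx2 gain was at least 4.18. Eomes and Tfap2c were higher by 2.14 ± 0.64 and 0.90 ± 0.26 (adjusted p = 0.0306 and 0.0258). The Tfap2c call was lost whichever array was left out, with adjusted p-values from 0.058 to 0.115. The Eomes call was lost without either released array (0.0945 and 0.115), and without the second treated array its difference was 0.92 (0.172). Gata2 differed by 0.11 and Elf5 by 0.69, and neither passed. Wfdc2 was at 5.88 and 6.32 in released embryos and at 4.39 and 2.82 in treated ones, a difference of 2.49 ± 0.50 (limma adjusted p = 0.0045). Ovgp1, the other oviduct marker tested, differed by -1.35 ± 0.56 (0.0959), and the rest of that list was under level 5 on these arrays. The part of these markers in the other differences was not tested.

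At the 8-cell stage recorded for them, the released embryos of day 3.5 exceeded the 4- to 8-cell controls of day 2.5 in 4 of the 7 factors, against 8.61% of all tested genes called higher. These groups also differed by a day of age, so age and release from U0126 cannot be told apart. Id2 was 3.55 ± 0.44 higher, Eomes 2.67 ± 0.64, Gata3 2.48 ± 0.42 and Cdx2 1.77 ± 0.35, with limma adjusted p-values of 0.00164, 0.0236, 0.0065 and 0.0111. For Eomes the call was lost whichever array was left out (adjusted p from 0.0849 to 0.114), and for Cdx2 without the second control array (0.0858) or the first released array (0.0708). Tfap2c differed by -0.25, Gata2 by 0.997 and Elf5 by 0.66. Wfdc2 was higher in the released embryos here too, by 2.92 ± 0.50 (limma adjusted p = 0.00631). Ovgp1 differed by -0.67 ± 0.56 (0.478), and no other marker of the oviduct list reached level 5 on these arrays. The part of these markers in the differences was not tested.

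Against controls of their own age, the released embryos of day 3.5 had no called difference in any of the 7 factors by limma, in a comparison in which 0.312% of all tested genes (31) were called at all. At an unadjusted p under 0.05 there were 699 genes, among them 1 factor, Id2, whose difference was -1.19 ± 0.44 (adjusted p = 0.557). The 95% intervals ran from -1.25 to 0.30 for Cdx2, from -1.30 to 0.58 for Gata3, from -2.45 to 0.39 for Eomes and from -0.72 to 0.43 for Tfap2c. Those of Id2 and Gata2 ran from -2.18 to -0.21 and from -1.14 to 0.95. These intervals leave room for sizeable differences in either direction for Gata3 and Gata2, and for lower Cdx2, Eomes and Id2.

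**Figure D2:**
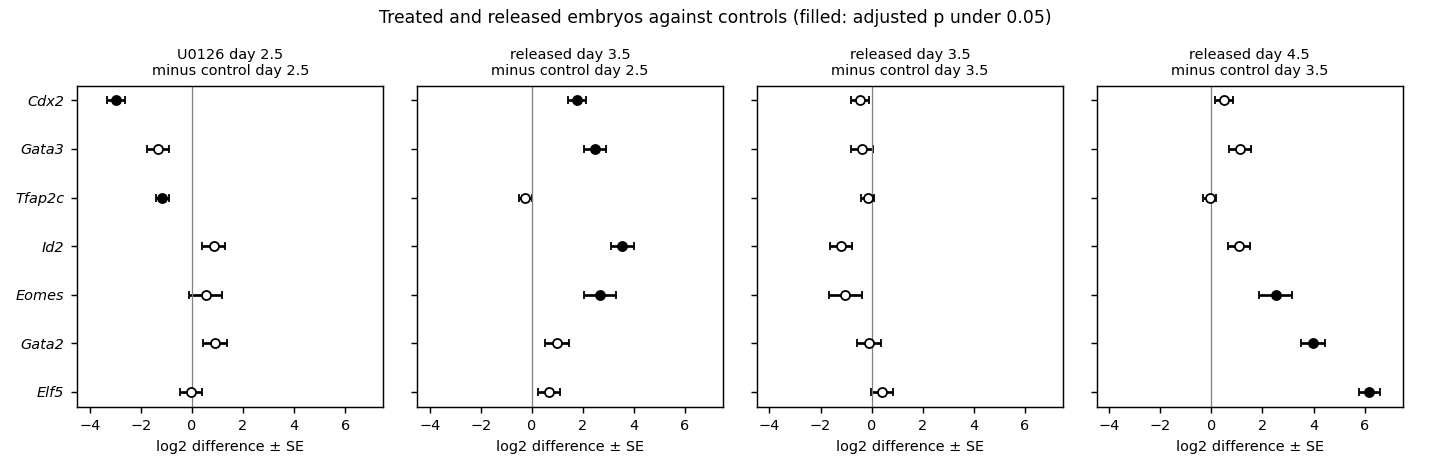
Log2 difference of each factor with its standard error (x axis) in 4 comparisons of treated or released embryos with controls, as in the panel titles, with filled points for an adjusted p under 0.05. Cdx2 at -2.99 and Tfap2c at -1.16 are the filled points for treated embryos, and Eomes, Gata2 and Elf5 are those for released embryos of day 4.5 against control day 3.5.

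At the stage between morula and blastocyst, the released embryos of day 4.5 had more Elf5, Gata2 and Eomes than control embryos of day 3.5, and the other 4 factors did not pass. Gata2 averaged 9.34 ± 0.56 in released embryos and 5.38 ± 0.82 in controls (SD, n = 2 each), a difference of 3.96 ± 0.47 (limma adjusted p = 0.00165). Elf5 averaged 8.94 ± 1.12 in released embryos and 2.75 ± 0.03 in controls (SD, n = 2 each), a fitted difference of 6.19 ± 0.42 (limma adjusted p = 6.48e-05) that was at least 3.94 from level 5. Eomes averaged 11.11 ± 0.18 in released embryos and 8.59 ± 0.84 in controls (SD, n = 2 each), a difference of 2.52 ± 0.64 (limma adjusted p = 0.0466). Elf5 aside, whose testing depended on this group, 2 of 6 factors compare with 3.85% of all tested genes called higher.

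The remaining differences at this stage were 1.13 for Gata3 (adjusted p = 0.158), 1.09 for Id2 (0.191), 0.50 for Cdx2 (0.476) and -0.07 for Tfap2c (0.928). The 95% interval of the Cdx2 difference ran from -0.28 to 1.28. Gata2 kept its call when any 1 array was left out. Elf5 differed by 5.395 to 6.98 in those fits, which kept the genes tested with all arrays. Without either released array Elf5 would have missed the rule of level 5 on at least 2 arrays. Eomes lost its call without the second control array (1.92, adjusted p = 0.382) and without either released array (0.196 and 0.185). The 2 groups shared a recorded stage and differed by a day of age as well as by treatment, so age and release from U0126 cannot be told apart. Among the oviduct markers Wfdc2 was at 8.72 and 8.40 in released embryos and at 6.93 and 5.89 in controls. The summed intensity of the 8 markers of that list was 490 and 407 in released embryos and 183 and 138 in controls, the other 7 were under level 5 on these arrays, and their part in these differences was not tested.

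Within the released embryos, Gata2, Eomes, Id2 and Gata3 rose between day 3.5 and day 4.5, 4 of the 6 factors other than Elf5, against 7.37% of all tested genes called higher, and Elf5 was called higher too. Day 4.5 exceeded day 3.5 by 5.78 ± 0.42 for Elf5, by 4.06 ± 0.47 for Gata2, by 3.54 ± 0.64 for Eomes, by 2.28 ± 0.44 for Id2 and by 1.49 ± 0.42 for Gata3, with limma adjusted p-values of 9.92e-05, 0.000761, 0.00655, 0.00855 and 0.0417. From level 5 the Elf5 gain was at least 3.94, and Elf5 again had been tested because of this group. The Gata3 call was lost whichever array was left out (adjusted p from 0.112 to 0.184), and the Id2 call without the first array of day 3.5 (0.0809) or the second of day 4.5 (0.0794). Cdx2 differed by 0.98 (adjusted p = 0.0931) and Tfap2c by 0.08. Wfdc2 was at 8.72 and 8.40 on day 4.5 and at 5.88 and 6.32 on day 3.5, a difference of 2.46 ± 0.50 (limma adjusted p = 0.0105), and the summed intensity of the oviduct list was 490 and 407 on day 4.5 and 126.3 and 151 on day 3.5. The other markers of that list stayed under level 5 on these arrays. The part of the list in these differences was not tested.

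The step into the stage between morula and blastocyst was then compared between released and control embryos. Gata2 gained more in the released series, 1 of the 6 factors other than Elf5, against 1.02% of all tested genes called higher for this difference between steps. The Gata2 step was 4.06 in released embryos and 1.09 in controls, and the difference between the steps was 2.97 ± 0.67 (limma adjusted p = 0.048). The Elf5 step was 5.78 in released embryos and 0.25 in controls, and the difference was 5.53 ± 0.60 (adjusted p = 0.00393), for a gene that was tested because of the released embryos of day 4.5. With 1 of the 8 arrays left out, the Elf5 difference ranged from 4.73 to 6.32. Those fits kept the genes tested with all arrays. Without either array of released day 4.5, Elf5 would have missed the rule of level 5 on at least 2 arrays. The Gata2 difference ranged from 2.39 to 3.545, and its call was kept in 1 of the 8 cases, without the first array of control day 3.5. For Id2 the step was 2.28 in released embryos and 4.74 in controls, a difference of -2.46 ± 0.63 that did not pass (adjusted p = 0.0698). For Eomes the step was 3.54 in released embryos and 3.70 in controls, and the difference of -0.16 had a 95% interval from -2.16 to 1.85.

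**Figure D3:**
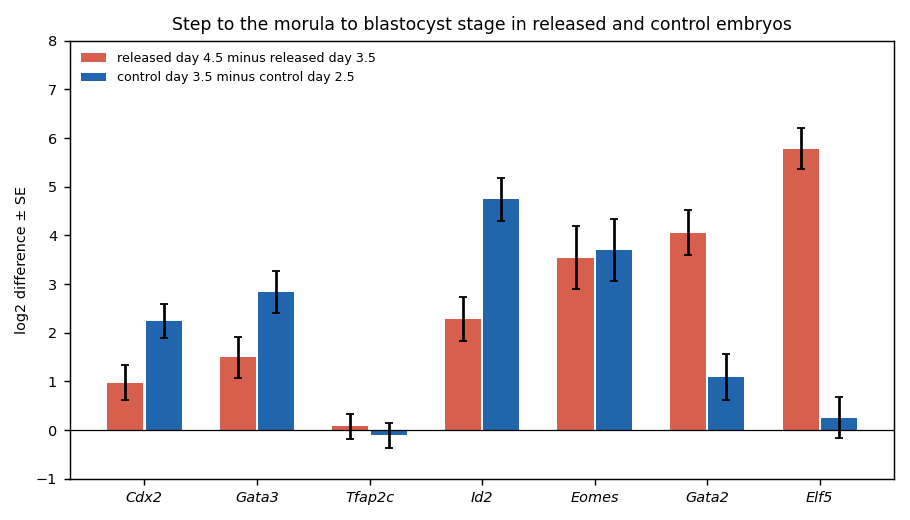
Log2 difference with its standard error (y axis) of each factor (x axis) for the step into the stage between morula and blastocyst, with released day 4.5 minus released day 3.5 in red and control day 3.5 minus control day 2.5 in blue. The red bars of Gata2 (4.06) and Elf5 (5.78) exceed the blue ones (1.09 and 0.25), and those of Cdx2, Gata3 and Id2 are shorter than the blue ones without passing the test.

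Over the 12 arrays, which share the 6 groups and so are not independent points, the levels of Cdx2 and Gata3 had a Pearson r of 0.98, those of Elf5 and Gata2 0.96, and those of Eomes and Id2 0.94. The lowest values among the pairs were 0.29 for Tfap2c with Gata2 and with Elf5. Among all tested genes the levels most like those of Cdx2 belonged to Vps54, a subunit of a vesicle tethering complex (r = 0.992), to Krt8, a keratin of simple epithelia (0.992), and to Lrp2, the endocytic receptor megalin (0.989). Gata3 was most like Serpinb6a, a serine protease inhibitor (0.993), Krt8 (0.990) and Krt18, the keratin that pairs with Krt8 (0.989). Id2 was most like Ppargc1b, Capn2 and Tmem51 (0.985, 0.982 and 0.981).

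The most similar genes for Elf5 were Rab15 (0.989), Gm4926 (0.987) and Wnt6 (0.986), and those for Gata2 were Rab15 (0.971), Mdfic (0.971) and Gulp1 (0.967), so Rab15, a small GTPase of endosomes, was the nearest gene of both. Eomes was most like Wfdc2 (0.985), a secreted protease inhibitor counted here among the oviduct markers, Atp12a, a subunit of a proton-potassium pump (0.983), and Rhoc (0.977). Tfap2c was most like Snhg1 (0.969), Cdk17 (0.966) and Rbmxl1 (0.962). All these values describe 6 group profiles. Outside released embryos of day 4.5, Elf5 was near background and Gata2 was at most 5.96. Their r of 0.96 and their shared nearest gene thus rest mainly on that group, through which Elf5 entered the tested genes.

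Listed relatives from the gene families of the 7 factors were counted next. Of 23 listed relatives 22 were on the array and 13 had enough signal to be tested. Cdx1, Cdx4, Elf4, Gata5, Tbr1, Tfap2b, Tfap2d and Id1 stayed under level 5 on all 12 arrays, and Tbx21 passed it on 1. Of the 13 tested relatives, 4 were lower in treated embryos than in controls of day 2.5 and none was higher, against 4.72% and 9.21% of all tested genes, with a median difference of -0.36 against 0.11 over all tested genes. Id3, a second Id factor, averaged 5.19 ± 0.08 in treated embryos and 8.20 ± 0.73 in controls (SD, n = 2 each), a difference of -3.01 ± 0.41 (limma adjusted p = 0.00206). Tbx20, a T-box factor known from heart development, differed by -2.40 ± 0.35 (0.00261), Gata6, a primitive endoderm factor, by -1.96 ± 0.43 (0.0154) and Tbx3 by -1.43 ± 0.36 (0.0279). The Id3 and Tbx20 calls held without any 1 array. The Gata6 call was lost without the first control array (0.107) or the second treated array (0.0745), and the Tbx3 call without 3 of the 4 arrays. With 1 array left out, 2 to 3 relatives were called lower and 0 to 2 higher.

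In the 2-cell controls the AP-2 relative Tfap2e was at 11.54 and 11.45, and the controls of day 2.5 differed by -6.47 ± 0.43 (limma adjusted p = 1.03e-06). Gata6, Tbx20 and Id3 were higher in controls of day 2.5 by 5.88 ± 0.43, 5.77 ± 0.35 and 4.70 ± 0.41 (adjusted p = 1.94e-06, 5.41e-07 and 5.35e-06). In all, 4 relatives rose and 5 fell in this step, against 28.0% and 27.4% of all tested genes. In the next control step 2 rose and 4 fell, against 13.4% and 8.28% of all tested genes. Those that rose were Elf3, an epithelial ETS factor, by 3.09 ± 0.81, and Tfap2a, another AP-2 factor, by 2.93 ± 0.54 (adjusted p = 0.0218 and 0.00456). The Elf3 call was lost without the second array of day 2.5 (0.151) or the first of day 3.5 (0.158).

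In the released embryos Tfap2a was the relative that rose most between day 3.5 and day 4.5, at 10.12 and 10.36 on day 4.5 and at 6.33 and 6.15 on day 3.5, a difference of 4.00 ± 0.54 (limma adjusted p = 0.00155). Tfap2c of the same family differed by 0.08 ± 0.26 in that step, and its 2 other probe sets, also over level 5, by 0.21 and -1.07. Elf1 rose by 1.89 ± 0.38 (0.0107), while Gata1, a blood-cell GATA factor, and Tbx3 fell by 2.27 ± 0.42 and 1.74 ± 0.36 (0.00704 and 0.0122), in a step in which 6.37% of all tested genes were called lower. The Tbx3 call was lost without any 1 array (0.0501 to 0.0929), and the Elf1 and Gata1 calls without the first array of day 3.5 or the second of day 4.5. Against control day 3.5 no relative passed in released embryos of day 4.5, where Tfap2a differed by 2.04 (adjusted p = 0.0552).

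**Figure D4:**
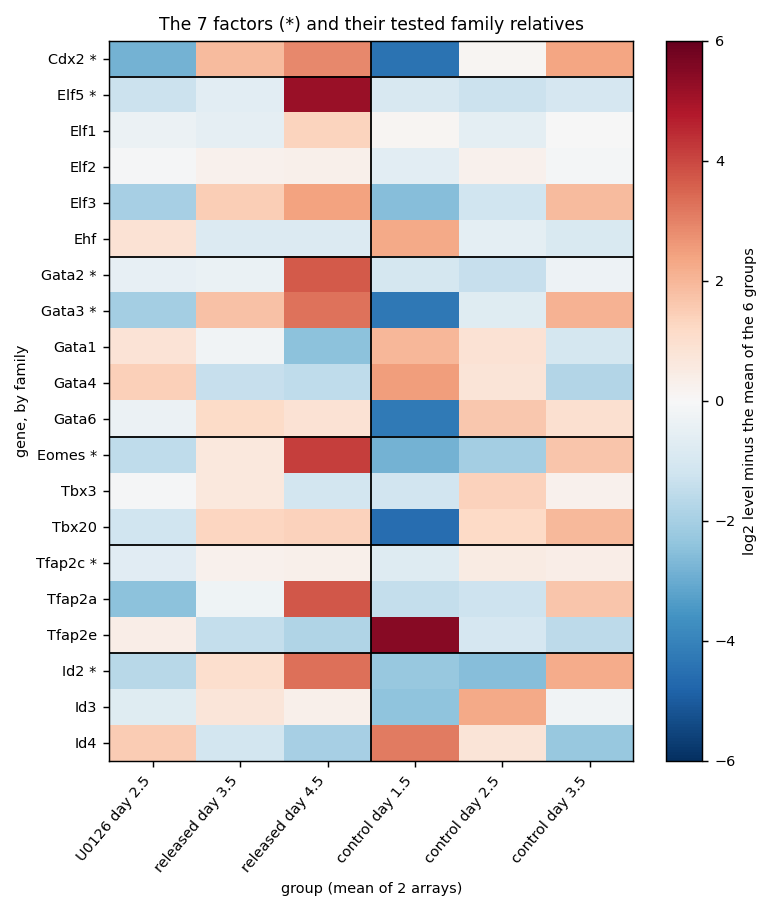
Mean log2 level of each factor (asterisk) and each tested relative (rows, by family) in 6 groups (columns, treated and released left of controls), shown as its difference from the mean of the 6 groups in log2 units. Elf5 and Gata2 are high in released day 4.5 while Gata1 is low there. Gata4 is low in both released groups and in control day 3.5, and Tfap2e is high in control day 1.5.

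Other regulators of the lineage were examined as a list of 28 genes, mostly TEAD and Hippo pathway members and further trophoblast factors, of which 22 were tested. In treated embryos 5 were lower and 2 higher than in controls of day 2.5, against 4.72% and 9.21% of all tested genes, with a median difference of -0.55 against 0.11 over all tested genes. Tead4, the TEAD factor that works upstream of Cdx2, averaged 8.27 ± 0.19 in treated embryos and 10.07 ± 0.74 in controls (SD, n = 2 each), a difference of -1.80 ± 0.47 (limma adjusted p = 0.0318). Amot, the angiomotin that holds YAP outside the nucleus of inner cells, differed by -2.18 ± 0.57 (0.0316). The Amot call was lost whichever array was left out (0.0693 to 0.168) and the Tead4 call in 3 of 4 cases (0.0803 to 0.21), leaving 0 to 2 regulators called lower.

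The 2 regulators higher in treated embryos were Grhl1, a grainyhead factor of epithelia, by 2.34 ± 0.37, and Ets2, an ETS factor of trophoblast stem cells, by 2.30 ± 0.34 (limma adjusted p = 0.00385 and 0.00282), and both calls held without any 1 array. Both were under level 5 in controls, from which the gains were at least 2.06 and 0.37. Ets2 was higher again in released embryos of day 4.5 than in controls of day 3.5, by 1.90 ± 0.34 (0.0112), a call lost without the second control array (0.134) or either released array (0.0558 and 0.0982). In the same comparison Msx2 was higher by 1.27 ± 0.25 (0.0159) and Lats1, a Hippo kinase, differed by -1.06 ± 0.25 (0.0364). Of all tested genes 2.03% were called lower in this comparison. The Msx2 call was lost in 3 of 4 cases and the Lats1 call in all 4.

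In the control series 12 of the 22 regulators rose and 5 fell between day 1.5 and day 2.5, against 28.0% and 27.4% of all tested genes. Between day 2.5 and day 3.5, 3 rose and 6 fell, against 13.4% and 8.28%, so that the falls of the first step and the rises of the second were near the share of all genes. Fewer falls were called in the second step whichever array was left out. Lats2, Amot, Amotl2 and Rbpj had the largest gains in the first step, from 5.18 for Lats2 to 3.98 for Rbpj. Sox15, a SOX factor of trophoblast and pluripotent cells, had the largest loss in the second step, at -3.12 ± 0.48 (limma adjusted p = 0.00195). It differed by -2.57 ± 0.48 in released embryos between day 3.5 and day 4.5 (0.00723), a call lost without the first array of day 3.5 (0.0654) or the second of day 4.5 (0.0758).

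Genes that carry out trophectoderm functions were examined as a further list. Of 30 listed keratins, junction proteins, transporters, pumps and secreted products 22 were tested. In treated embryos 5 were lower and none was higher than in controls of day 2.5, against 4.72% and 9.21% of all tested genes, with a median difference of -0.47 against 0.11 over all tested genes. At an unadjusted p under 0.05 the counts were 6 lower and 1 higher. Krt8 averaged 6.40 ± 0.77 in treated embryos and 9.59 ± 0.56 in controls (SD, n = 2 each), a difference of -3.19 ± 0.42 (limma adjusted p = 0.00199). Cldn4, a tight junction claudin, differed by -3.02 ± 0.56 (0.00729), Krt18 by -2.76 ± 0.59 (0.0131) and Lrp2 by -2.70 ± 0.43 (0.00408). The Krt8 and Lrp2 calls held without any 1 array, and in those cases 2 to 4 of the list were called lower and 0 to 1 higher. Cldn4 lost its call without the first control array (0.0639), and Krt18 without that array (0.0981) or the second treated array (0.0503).

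On release, 16 of the 22 functional genes rose by day 3.5 and none fell, against 13.7% and 14.5% of all tested genes, with a median difference of 1.87 against -0.02 over all tested genes. Krt8 was 6.77 ± 0.42 higher than in treated embryos, Krt18 6.44 ± 0.59, Lrp2 6.15 ± 0.43 and Ptges, a prostaglandin E synthase, 4.70 ± 0.42, with limma adjusted p-values of 1.1e-05, 7.99e-05, 1.74e-05 and 6.77e-05. Without any 1 array 13 to 16 were called. Relative to controls of day 2.5, 10 were higher and none lower, against 8.61% and 4.05% of all tested genes. Relative to controls of day 3.5, 0 of the 22 were called in released embryos of day 3.5 by limma, beside 0.312% of all tested genes (31). At an unadjusted p under 0.05 there were 2 of the 22 and 699 of the 9930 tested genes. The median difference of the 22 was -0.002.

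In released embryos of day 4.5, 6 of the 22 functional genes were higher than in controls of day 3.5 and none was lower, against 3.85% and 2.03% of all tested genes, with a median difference of 1.08 against -0.03 over all tested genes. Slc15a2, a peptide transporter, averaged 12.74 ± 0.19 in released embryos and 7.43 ± 0.40 in controls (SD, n = 2 each), a difference of 5.31 ± 0.55 (limma adjusted p = 0.00104). Plac1, a gene of the placenta, was 4.47 ± 0.35 higher (0.000142) and at least 3.21 from level 5. It was under level 5 in those controls, so its being tested may have depended on released embryos of day 4.5. Lgals3, a galectin, was 3.16 ± 0.37 higher (0.00162). These 3 calls held without any 1 array, in which cases 4 to 7 were called. Tspan8, a tetraspanin, was 3.34 ± 0.60 higher (0.0111), and its call was lost without the second control array (0.139) or either released array (0.0645 and 0.0819). Of these 4 genes Plac1 also gained more in the released step than in the control step, by 3.29 ± 0.50 (0.0124), a call lost without the second array of control day 3.5 (0.0523). Over the whole list 1 gene gained more in the released step and 3 gained less, against 1.02% and 1.32% of all tested genes. The 3 differed between steps by -3.19 ± 0.59 for Ptges (0.0243), by -3.15 ± 0.61 for Lrp2 (0.0285) and, for Ezr, a linker of membrane and actin, by -2.73 ± 0.62 (0.0498). The Ptges and Lrp2 calls were each lost in 7 of 8 cases with 1 array left out, and the Ezr call in all 8.

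Factors of pluripotency, which the trophectoderm switches off, were counted beside them. In treated embryos 6 of 15 were lower and 1 was higher than in controls of day 2.5, against 4.72% and 9.21% of all tested genes, with a median difference of -0.78 against 0.11 over all tested genes. Fewer of the 15 were called lower whichever array was left out. Tfcp2l1 differed by -3.17 ± 0.38 and Gdf3 by -3.27 ± 0.43 (limma adjusted p = 0.00135 and 0.00199), and Fgf4, the growth factor of the inner cell mass, was 2.73 ± 0.37 higher (0.00206). Pou5f1 averaged 9.38 ± 0.26 in treated embryos and 10.98 ± 0.63 in controls (SD, n = 2 each), a difference of -1.60 ± 0.46 (0.0425) that was lost whichever array was left out (0.0549 to 0.255). In released embryos of day 4.5 none of the 15 was called by limma relative to controls of day 3.5, beside 5.88% of all tested genes (584). At an unadjusted p under 0.05 there were 6 of the 15 and 2065 of the 9930 tested genes.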

How the data were processed

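Whole-embryo RNA was measured on 12 Affymetrix whole-genome mouse arrays, labelled after a 2-cycle amplification per the labels' protocols. The deposited values are linear intensity values per probe set, made by the authors with GCRMA per the submitters' processing notes, and the series' text names GCOS 1.2 and GeneSpring 7.3. No source used here states any further scaling. Of 45101 probe sets, 34958 had 1 gene symbol, 932 several and 9211 none in the platform annotation, and only the first kind was used. Values were taken as log2(intensity + 1). A gene was tested if its level reached 5 on at least 2 arrays.

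All 12 arrays entered 1 model in limma 3.58.1 (R 4.3.3) (lmFit, contrasts.fit, eBayes), fitted as group means, which gave 6 residual and 4.51 prior degrees of freedom, and p-values were Benjamini-Hochberg adjusted over all 9930 genes at a threshold of 0.05. With 2 arrays against 2, an exact test of 1 gene cannot go below p = 0.333, so limma's pooled spread carries every call. The number of arrays limits the precision. Alternatives were the pseudocount, the filter, the normalization, the probe set rule, the arrays fitted, a replicate term and leaving out each array. Fits with 1 array left out kept the genes tested with all 12 arrays. The genes named were the 7 factors, up to 4 called genes with the largest difference in each list and comparison, and the 3 genes most like each factor, and relatives by counts and levels. The factors, lists and comparisons were chosen with earlier results of these data known, and the comparisons of neighbouring groups in a factor's order followed from its means.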

Additional observations from a re-analysis of the deposited data

Results flagged for a closer look

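The step into the stage between morula and blastocyst differed between the released and the control series, by the test of the difference itself, for 2 of the 7 factors. For Elf5 the released step exceeded the control step by 5.53 ± 0.60 (limma adjusted p = 0.00393). Elf5 was over level 5 on 2 of 12 arrays, both from released embryos of day 4.5, and it was tested because of them. For Gata2 the excess was 2.97 ± 0.67 (limma adjusted p = 0.048), and the call was lost in 7 of the 8 cases with 1 array left out.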

How the results depend on the processing

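Calls of the 7 factors given in the report as holding without any 1 array also held under every other setting tried, except that Cdx2 in U0126 day 2.5 minus control day 2.5 had an adjusted p of 0.0621 with only the arrays compared. With only those arrays, U0126 day 2.5 minus control day 2.5 gave 0 genes by limma (2245 at an unadjusted p under 0.05) and 0 factors, against 1384 and 2 with all arrays. That setting gave 1381 genes and 3 factors for released day 3.5 minus U0126 day 2.5 (2799 and 5), 13 genes for released day 3.5 minus control day 3.5 (31), 313 for released day 4.5 minus control day 3.5 (584) and 1 factor for the difference between steps (2), which no filter on low levels also reduced to 1. For released day 3.5 minus control day 3.5 a pseudocount of 16 gave 20 genes and no filter 2.

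Without a filter Eomes lost its calls in released day 3.5 minus U0126 day 2.5 (adjusted p = 0.0966), released day 3.5 minus control day 2.5 (0.0763) and released day 4.5 minus control day 3.5 (0.128), and Gata3 its call between the released groups (0.0945). Gata3 in U0126 day 2.5 minus control day 2.5 passed with median centring (-1.53, adjusted p = 0.0279), quantile normalization (-1.43, 0.0416) and the replicate block (0.0224). Cdx2 between the released groups passed with a pseudocount of 16 (0.0331) and the replicate block (0.0212). The block gave 2165 genes between the released groups (1365), 2018 for released day 3.5 minus control day 2.5 (1257), 1017 for released day 4.5 minus control day 3.5 (584) and 615 for the difference between steps (232). Same-numbered arrays deviated together across groups at correlations of 0.125 to 0.417, but each pairing rests on 2 numbers that no label explains.

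Some differences that had not been called changed sign. Eomes in the difference between steps was 0.27 with a pseudocount of 16 and 0.0056 with median centring, and Tfap2c in U0126 day 2.5 minus control day 1.5 was -0.028 with median centring. With the mean of all probe sets Gata2 in released day 3.5 minus U0126 day 2.5 was -0.27, Tfap2c between the released groups -0.26, and Tfap2c in released day 3.5 minus control day 3.5 0.10. Under that setting Eomes in released day 3.5 minus U0126 day 2.5 lost its call (1.65, adjusted p = 0.0629).

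Median centring moved the share of calls that were higher to 45.4% from 61.7% in control day 3.5 minus control day 2.5, to 47.0% from 66.1% in U0126 day 2.5 minus control day 2.5, to 50.9% from 68.0% in released day 3.5 minus control day 2.5 and to 56.2% from 43.5% in the difference between steps. The median difference of all tested genes moved with it, to -0.12 from 0.09, to -0.09 from 0.11, to -0.11 from 0.09 and to 0.04 from -0.13 in the same order, and to 0.02 from 0.18 in U0126 day 2.5 minus control day 1.5.

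With 1 array left out, genes called ranged from 677 to 1565 in control day 3.5 minus control day 2.5 (2148 with all arrays), 409 to 1183 in U0126 day 2.5 minus control day 2.5, 1630 to 2372 in released day 3.5 minus U0126 day 2.5, 321 to 759 between the released groups, 268 to 577 in released day 3.5 minus control day 2.5, 1 to 30 in released day 3.5 minus control day 3.5, 84 to 541 in released day 4.5 minus control day 3.5 and 30 to 115 in the difference between steps. Factors called ranged from 1 to 2 in U0126 day 2.5 minus control day 2.5, 3 to 4 in released day 3.5 minus U0126 day 2.5, 3 to 4 between the released groups, 2 to 3 in released day 3.5 minus control day 2.5 and 1 to 2 in the difference between steps. Differences that changed sign were those of Gata2 (-0.70 to 0.024) and Id2 (-0.68 to 0.19) in control day 2.5 minus control day 1.5, Tfap2c in control day 3.5 minus control day 2.5 (-0.22 to 0.0016), Tfap2c in U0126 day 2.5 minus control day 1.5 (-0.14 to 0.39), Eomes in U0126 day 2.5 minus control day 2.5 (-0.69 to 1.75), Gata2 in released day 3.5 minus U0126 day 2.5 (-0.41 to 0.63), Gata2 (-0.67 to 0.48) and Gata3 (-0.80 to 0.074) in released day 3.5 minus control day 3.5, Tfap2c between the released groups (-0.022 to 0.18) and in released day 4.5 minus control day 3.5 (-0.17 to 0.035), and Eomes in the difference between steps (-0.75 to 0.44). The causes of these changes were not tested. Signal near background limits every value under level 5, and 2 arrays per group limit the rest.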
